A study of Mus musculus with 66 samples.

Results

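Ide, Fgfbp3 and Btaf1 lie close together on mouse chromosome 19, and their RNA was followed here with that of 5 genes listed between and beside them: Tnks2, Cpeb3, Marchf5, Rpl10-ps6 and Kif11. These 8 genes were listed by name and position, out of 45706 identifiers in the gene tables, after steps in Ide, Fgfbp3 and Btaf1 had been seen in these libraries, so they were selected on the Ide, Fgfbp3 and Btaf1 levels of these same mice, and their levels are given as a description and without a test. RNA was sequenced from 66 libraries of mice homozygous for 5 spontaneous mutations of Rorb, which encodes the nuclear receptor ROR-beta, and of their control strains. Brain hemisections and spinal cords came from C57BL/6J (n = 3), H1/H1 (n = 3), H2/H2 (n = 4), H3/H3 (n = 4), H4/H4 (n = 4), DBA/1J (n = 3) and H5/H5 mice (n = 3), with both tissues taken from each of these 24 animals by the identifiers of the deposited files, and cortex, hippocampus and cerebellum came from further DBA/1J (n = 3) and H5/H5 mice (n = 3) of 7 weeks. The h1 allele is a duplication that reaches the start of Rorb on a C57BL/6J background. The h2 and h3 alleles, whose mutations were not identified, arose on an albino C57BL/6 strain carrying Tyr c-2J, and the h4 allele, a nonsense change, arose on a C57BL/6 strain carrying a targeted Il1r1 allele. The h5 allele is a start-loss of 1 Rorb isoform on DBA/1J. All mice with brain hemisections and cords were 7.9 to 9.6 weeks old, each mutant group holds mice of 1 strain, and the same 3 C57BL/6J mice served as the control of H1/H1 to H4/H4. For H2/H2, H3/H3 and H4/H4 the Rorb allele and the substrain background that comes with it therefore cannot be told apart. H2/H2 and H3/H3 have the same named background strain.

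Insulin-degrading enzyme, the product of Ide, is a zinc metallopeptidase that cleaves insulin, amylin and amyloid beta. Fgfbp3 encodes a secreted carrier of fibroblast growth factors, and Btaf1 an ATPase that removes TATA-binding protein from DNA. Tnks2 encodes a tankyrase, a poly-ADP-ribosylating enzyme, Cpeb3 a binding protein of cytoplasmic polyadenylation elements, Marchf5 a ubiquitin ligase of the mitochondrial outer membrane and Kif11 a mitotic kinesin, while Rpl10-ps6 is a processed pseudogene of the ribosomal protein gene Rpl10. A duplication that holds Ide and Fgfbp3 is known to segregate in C57BL/6J colonies. DNA copy number was not measured in these samples, and the values below are RNA levels.

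Along chromosome 19 of GRCm38 the genes follow each other from Tnks2 (chr19:36834129-36893477) through Fgfbp3 (chr19:36917550-36919599), Btaf1 (chr19:36926079-37014057), Cpeb3 (chr19:37019341-37207620), Marchf5 (chr19:37207540-37224457) and Ide (chr19:37268743-37334544) to Kif11 (chr19:37376382-37421863). Rpl10-ps6 (chr19:37295093-37295837) lies inside the span of Ide. RefSeq windows of 250 bases before and 50 after the annotated start were found for 7 of the 8 genes, all but Rpl10-ps6. The windows of the 3 genes that moved together are shown to let their starts be compared, with capitals marking each match on either strand to the CCAAT box (CCAAT), the GC box (GGGCGG), the TATA box (TATAAA) or the full cyclic AMP response element (TGACGTCA).
Ide (GRCm38.p6, chr19:37334495-37334794, minus strand): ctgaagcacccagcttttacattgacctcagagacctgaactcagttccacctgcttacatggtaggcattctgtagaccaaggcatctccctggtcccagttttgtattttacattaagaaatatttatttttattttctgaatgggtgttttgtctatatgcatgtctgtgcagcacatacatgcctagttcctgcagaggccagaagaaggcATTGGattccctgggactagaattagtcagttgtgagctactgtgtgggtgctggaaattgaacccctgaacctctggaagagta
Fgfbp3 (GRCm38.p6, chr19:36919550-36919849, minus strand): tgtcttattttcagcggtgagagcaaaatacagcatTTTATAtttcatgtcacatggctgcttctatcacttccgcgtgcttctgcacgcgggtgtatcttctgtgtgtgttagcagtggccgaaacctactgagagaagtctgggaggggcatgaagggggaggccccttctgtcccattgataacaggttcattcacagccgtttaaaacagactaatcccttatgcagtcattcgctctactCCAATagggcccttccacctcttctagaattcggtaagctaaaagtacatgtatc
Btaf1 (GRCm38.p6, chr19:36925829-36926128, plus strand): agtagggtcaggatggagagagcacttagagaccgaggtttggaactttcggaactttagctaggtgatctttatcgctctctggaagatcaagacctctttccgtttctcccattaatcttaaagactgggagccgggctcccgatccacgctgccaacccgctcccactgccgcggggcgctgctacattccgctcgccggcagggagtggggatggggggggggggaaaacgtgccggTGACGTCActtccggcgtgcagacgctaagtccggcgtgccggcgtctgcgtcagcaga

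The 3 windows had little in common. The window of Btaf1 held 25 CG dinucleotides and a G+C content of 60.0%, that of Fgfbp3 9 and 46.7%, and that of Ide 0 and 44.0%, beside medians of 7 and 52.7% over the 32851 windows of the table. CCAAT, which 37.4% of all windows hold, was found in the windows of Ide and Fgfbp3 but not in that of Btaf1. TGACGTCA, present in 1.79% of all windows, was found once, in Btaf1, and TATAAA, present in 13.6%, once, in Fgfbp3. GGGCGG, present in 35.7% of all windows, was in none of the 3. Fgfbp3 and Btaf1 start on opposite strands and point away from each other, with 5979 bases between their windows. Cpeb3 and Marchf5 are also divergent, and their first windows share 168 bases with 77.7% and 71.7% G+C, so these 2 genes start almost at the same place. Those starts lie between Btaf1 and Ide.

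Levels are given as CPM (counts relative to the library total) scaled by the trimmed mean of M-values (TMM) over all 66 libraries, which held 32889755 to 59120536 estimated counts each. On this scale Ide fell into 3 separate levels among the 18 animals of C57BL/6J-related background, and the levels coincided with genotype. In brain hemisections the C57BL/6J mice read 64.8, 59.6 and 59.6 CPM, the H1/H1 mice 58.7, 62.0 and 59.4 CPM, and the H2/H2 mice 58.8, 59.1, 58.2 and 56.98 CPM. The H4/H4 mice read 92.8, 87.3, 88.3 and 82.5 CPM, and the H3/H3 mice 115.3, 113.9, 115.4 and 116.6 CPM. The 10 lowest animals were thus all C57BL/6J, H1/H1 or H2/H2, and no H4/H4 value overlapped with those below or above. The 2 widest gaps between neighbouring values, taken as ratios, were 1.273 (from 64.8 to 82.5 CPM), below the H4/H4 mice, and 1.227 (from 92.8 to 113.9 CPM), above them.

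Spinal cords of the same animals gave the same order. C57BL/6J cords read 71.1, 65.2 and 70.7 CPM, H1/H1 cords 70.7, 66.8 and 68.2 CPM, and H2/H2 cords 69.8, 72.0, 65.6 and 68.7 CPM. H4/H4 cords read 106.8, 106.0, 110.05 and 107.5 CPM, and H3/H3 cords 133.4, 129.1, 132.7 and 135.8 CPM. Again the 2 widest gaps as ratios, 1.473 from 72.0 to 106 CPM and 1.173 from 110.05 to 129 CPM, separated the H4/H4 mice from the others. Relative to C57BL/6J, mean Ide was 1.88-fold (SD 0.094) in H3/H3 and 1.43-fold (SD 0.098) in H4/H4 brain, and 1.92-fold (SD 0.10) and 1.56-fold (SD 0.079) in cord, with n = 4 mutants and 3 controls each. The step of the H4/H4 mice was 48.9% of the step of the H3/H3 mice in brain and 60.5% in cord. H1/H1 brains stood at 0.98-fold (SD 0.056) and H2/H2 brains at 0.95-fold (SD 0.049) of C57BL/6J. The 4 H2/H2 brains were all below the 3 controls, as 4.01% of all genes were, while their cords, at 1.00-fold (SD 0.062), overlapped with them. Values of both sexes and of different ages lay together within a level: the 1 female H3/H3 brain read 115.4 CPM among males at 113.9 to 116.6 CPM, and the H3/H3 mouse of 9.6 weeks read 115.3 CPM.

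Fgfbp3, whose RNA was much scarcer, with 69 to 279 counts per library, followed Ide with wider spread. In brain the C57BL/6J mice read 3.06, 2.85 and 2.75 CPM, the H4/H4 mice 4.27, 3.95, 5.08 and 4.52 CPM, and the H3/H3 mice 6.21, 5.40, 5.22 and 4.82 CPM. Both mutant groups were above each of the 10 animals of the C57BL/6J, H1/H1 and H2/H2 groups, which spanned 1.97 to 3.63 CPM, but overlapped with each other. In cord the C57BL/6J mice read 2.47, 2.99 and 2.38 CPM, the H4/H4 mice 3.52, 2.90, 3.74 and 2.65 CPM, and the H3/H3 mice 3.69, 3.91, 4.11 and 4.00 CPM. Here 2 of the 4 H4/H4 cords lay within the range of the 10 lower animals (2.06 to 2.99 CPM), and the H3/H3 cords were all above it. The mean fold over C57BL/6J was 1.88 (SD 0.23) in H3/H3 and 1.54 (SD 0.19) in H4/H4 brain, and 1.503 (SD 0.20) and 1.23 (SD 0.25) in cord. The H4/H4 step was 62.1% of the H3/H3 step in brain and 44.9% in cord.

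Btaf1 moved in the same order and was more sharply separated in cord than in brain. Brain values were 53.0, 48.7 and 58.2 CPM in C57BL/6J, 57.5, 63.4, 60.4 and 61.7 CPM in H4/H4, and 73.5, 71.6, 65.5 and 69.1 CPM in H3/H3. The H3/H3 brains were above all others of this background, whereas the lowest H4/H4 brain fell below the highest of the 10 lower animals (58.3 CPM). Cord values were 38.7, 34.7 and 36.5 CPM in C57BL/6J, 45.2, 45.9, 49.0 and 47.3 CPM in H4/H4, and 63.4, 58.0, 61.3 and 57.2 CPM in H3/H3, and the 3 levels did not overlap. Mean folds were 1.31 (SD 0.13) in H3/H3 and 1.14 (SD 0.11) in H4/H4 brain, and 1.64 (SD 0.12) and 1.28 (SD 0.085) in cord. The H4/H4 step of Btaf1 was 44.8% of the H3/H3 step in brain and 43.7% in cord. In the H2/H2 brains Btaf1 also split, at 55.2 and 58.3 CPM in the mice of 7.9 weeks and 44.6 and 42.6 CPM in those of 9.4 weeks. Their cords read 37.0 and 39.5 against 33.3 and 35.3 CPM. Ide differed little between these mice, while Tnks2 in brain split alike, at 211 and 203 against 190 and 184 CPM. The younger and older mice also differ in identifier series, so age and series cannot be told apart. The H3/H3 mouse of 9.6 weeks had the highest brain Btaf1 of its group, 73.5 CPM.

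**Figure D1:**
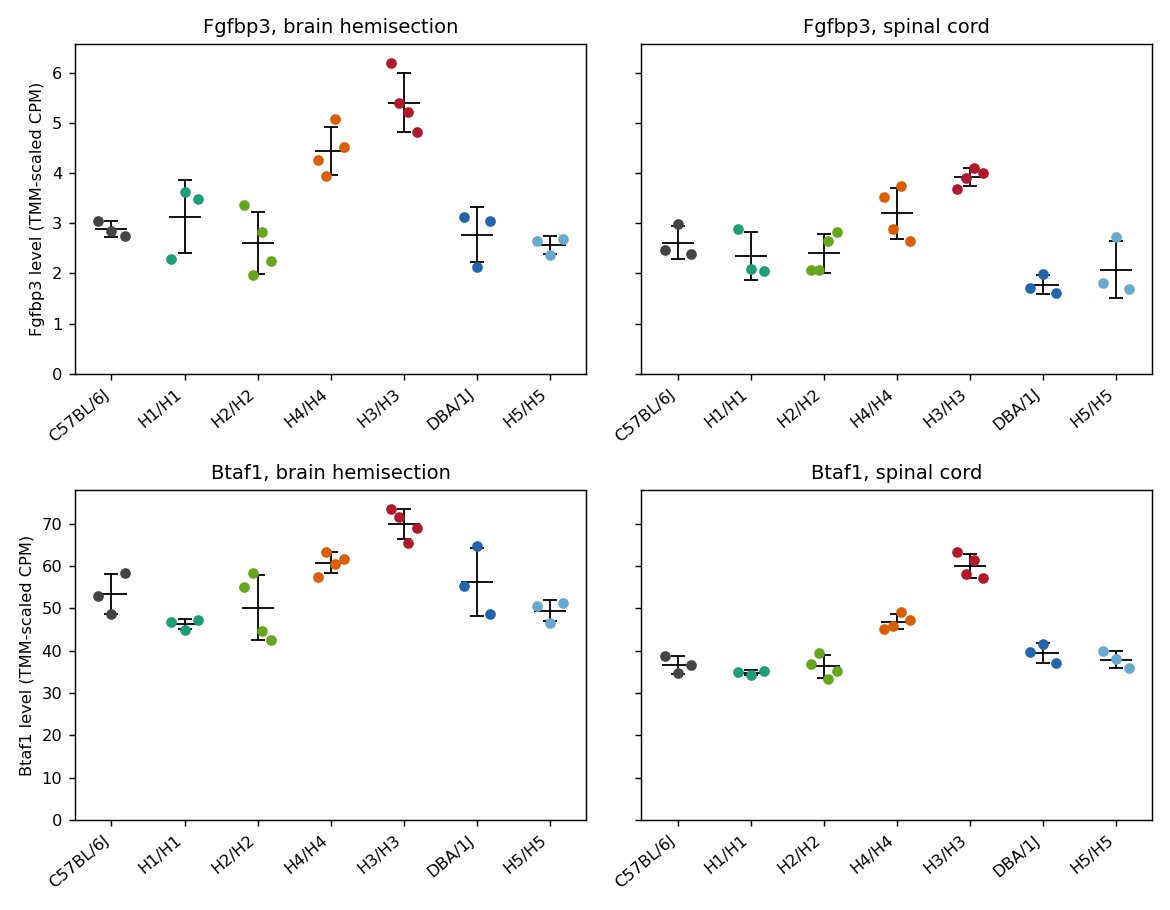
Fgfbp3 (upper row) and Btaf1 (lower row) in TMM-scaled CPM (vertical axes) by genotype (horizontal axes) in brain hemisection and spinal cord; points are libraries, horizontal bars means and error bars SD (n = 3 or 4). Both genes were highest in H3/H3, with H4/H4 next, and the 3 levels of Btaf1 did not overlap in cord (34.7 to 38.7, 45.2 to 49.0 and 57.2 to 63.4 CPM in C57BL/6J, H4/H4 and H3/H3).

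The genes around and between these 3 showed no such step. Tnks2, the next gene on the side of Fgfbp3, read 182 to 215 CPM in C57BL/6J brain, 185 to 202 CPM in H4/H4 and 189 to 195 CPM in H3/H3, with mean folds of 1.00 (SD 0.094) and 0.97 (SD 0.083). Cpeb3, between Btaf1 and Ide, averaged 86.4 CPM (SD 1.8) in C57BL/6J, 88.0 (SD 4.2) in H4/H4 and 88.2 (SD 2.0) in H3/H3 brain. Marchf5, the neighbour of Ide on that side, averaged 48.8 CPM (SD 4.4), 47.7 (SD 2.7) and 48.1 (SD 1.1) in the same groups. In cord the means of Tnks2, Cpeb3 and Marchf5 in H3/H3 were 0.97, 0.98 and 1.03 of the C57BL/6J mean, and those in H4/H4 0.97, 0.95 and 1.01. All of these ranges of CPM overlapped with the controls. In deposited TPM Cpeb3 in H4/H4 cord was below every control (0.95, SD 0.041), and no share over all genes was computed on that scale. Kif11, beyond Ide, was low in all groups: it averaged 2.45 CPM (SD 0.060) in C57BL/6J, 1.95 (SD 0.33) in H4/H4 and 2.20 (SD 0.35) in H3/H3 brain, and in cord the H4/H4 values of 1.60 to 1.95 CPM were all below the controls at 2.03 to 2.14 CPM, as were 6.97% of all genes, but overlapped with them in deposited TPM.

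Rpl10-ps6 was near the floor of detection, with 0 to 41.9 estimated counts per library. In brain it averaged 0.20 CPM (SD 0.088) in C57BL/6J, 0.43 (SD 0.15) in H4/H4 and 0.50 (SD 0.063) in H3/H3, and in cord 0.34 (SD 0.062), 0.50 (SD 0.19) and 0.50 (SD 0.15). Only the H3/H3 brains were all above their controls. Its counts were not whole in 63 of 66 libraries, and RSEM divides reads that match several loci. Which loci shared them was not tested, and the level of the pseudogene is uncertain.

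Counted over the 8 genes, every H3/H3 library was above every C57BL/6J library for 4 genes in brain (Ide, Fgfbp3, Btaf1 and Rpl10-ps6) and for Ide, Fgfbp3 and Btaf1 in cord. Over all genes tested 4.59% did so in brain and 6.12% in cord. Every H4/H4 library was above every control library for Ide and Fgfbp3 in brain and for Ide and Btaf1 in cord, where 5.3% and 5.9% of all genes did so. The genes were listed for these steps, so nothing is read from these counts. Single genes also stood apart from their controls in other groups without following that order. Btaf1 was lower in all H1/H1 brains (mean fold 0.868, SD 0.081), where 5.57% of all genes were, and Kif11 higher in them (1.13, SD 0.11), where 4.33% were. Tnks2 was lower in all cords of H1/H1 (0.96, SD 0.030) and H2/H2 (0.97, SD 0.018), as were 8.74% and 7.27% of all genes, but in deposited TPM both overlapped with the controls and the H2/H2 mean was 1.009-fold. Kif11 was lower in all H2/H2 brains (0.82, SD 0.12), where 4.01% of all genes were, and higher in all H5/H5 than DBA/1J cords (1.285, SD 0.25), where 6.81% were. Rpl10-ps6 was lower in all H1/H1 cords (0.605, SD 0.37), where 8.74% were. It was also lower in all H5/H5 than DBA/1J brains (0.40, SD 0.25), where it did not pass the filter on low counts and no share was computed. Nor was a share computed for the dissected regions. There Fgfbp3 was lower in all H5/H5 hippocampi (2.65 to 2.92 against 3.26 to 3.35 CPM). Kif11 was higher in all H5/H5 cortices (1.98 to 2.28 against 1.48 to 1.77 CPM), and Rpl10-ps6 in all H5/H5 hippocampi (0.296 to 0.312 against 0 to 0.287 CPM). In deposited TPM the H1/H1 cords were also below every control for Btaf1 (0.90, SD 0.042), Cpeb3 (0.91, SD 0.038), Marchf5 (0.93, SD 0.038) and Kif11 (0.90, SD 0.047), which overlapped in CPM. The share of all genes below every control in TPM was not computed. The H1/H1 cord fold of each of the 8 genes was lower in TPM than in CPM, as for Ide (0.98 against 0.993) and Tnks2 (0.94 against 0.96). A shift in scale shared by many genes was not tested. All but 1 of the 8 passed the filter on low counts in each of the 12 comparisons made, and Rpl10-ps6 passed in 9. From the edgeR fits the log2 fold changes of Ide were 0.92 (SE 0.044) in H3/H3 and 0.52 (SE 0.050) in H4/H4 brain, and 0.94 (SE 0.041) and 0.64 (SE 0.036) in cord, whereas those of Cpeb3 and Marchf5 stayed between -0.08 and 0.05 in these 4 comparisons.

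**Figure D2:**
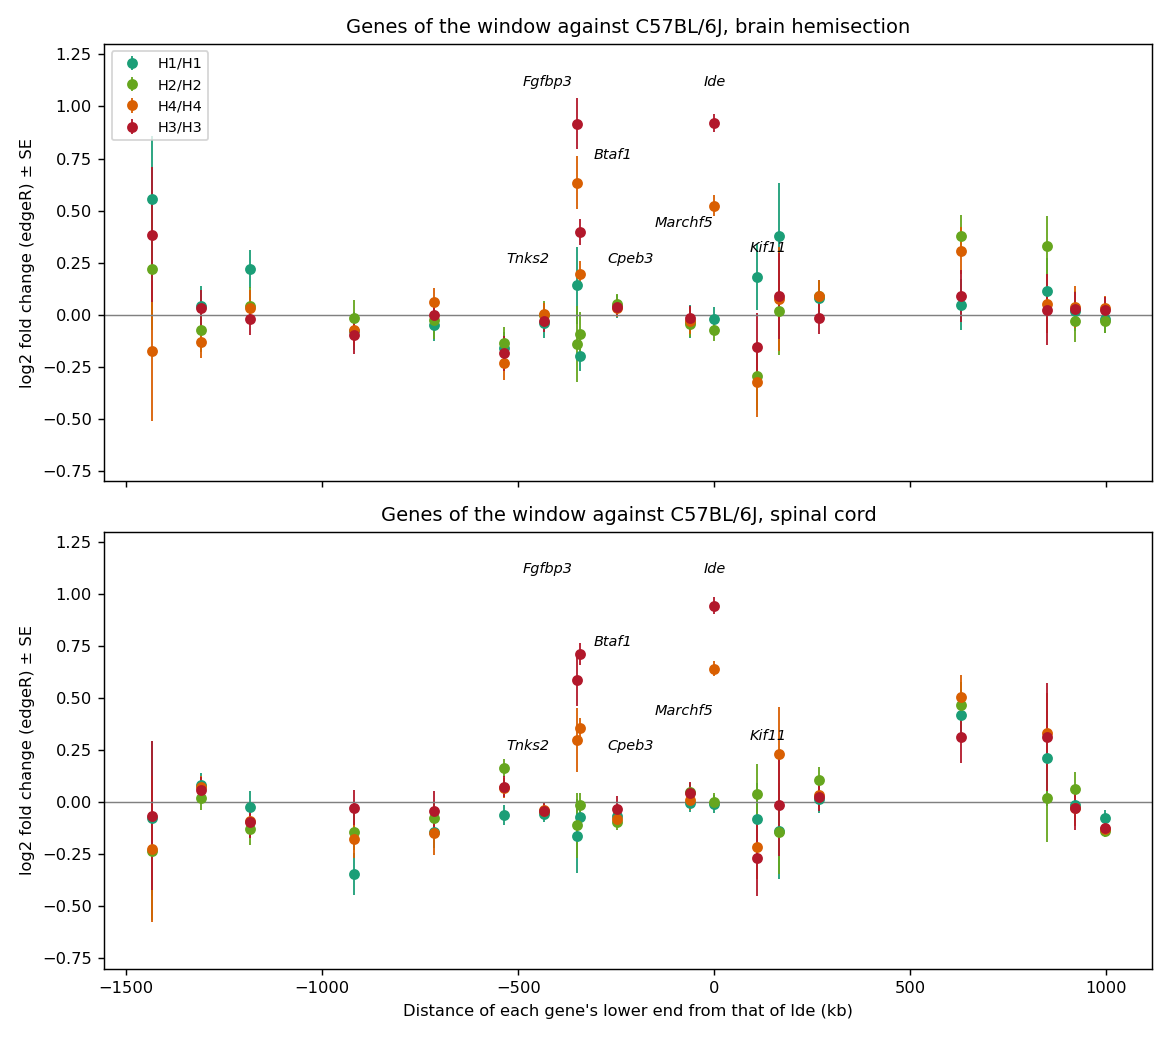
Log2 fold change from edgeR against C57BL/6J, with an SE derived from its F statistic (vertical axis), for each gene tested in all comparisons. The horizontal axis gives the distance in kb between the lower end of each gene and that of Ide. Brain hemisection is in the upper panel and spinal cord in the lower panel, and colours mark genotype. Ide, Fgfbp3 and Btaf1 stand above 0 in H3/H3 and H4/H4, while Cpeb3 and Marchf5, which lie between them, stand near 0.

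The window from 1 Mb before Tnks2 to 1 Mb after Kif11 holds 22 further annotated genes, which were not chosen for their values and were tested with edgeR's quasi-likelihood test and Benjamini-Hochberg adjustment over all genes. In H3/H3 none of the 15 tested in brain and none of the 14 tested in cord passed, with 1 and 2 at an unadjusted p under 0.05 and 0 in both by DESeq2, beside 0.164% and 1.01% of all genes called. In H4/H4 brain none of 15 passed, with 2 at an unadjusted p under 0.05 and 0 by DESeq2, beside 0.703% of all genes. In H4/H4 cord 1 of 15 passed, beside 1.75% of all genes. This was Myof, which encodes a membrane-repair ferlin and whose lower end lies 630 kb from that of Ide: it read 5.10 CPM (SD 0.28, n = 4) against 3.59 (SD 0.32, n = 3), a log2 fold change of 0.50 (SE 0.11) with an adjusted p of 0.029. The call was lost without C57BL/6J cord 1 or H4/H4 cord 2, 3 or 4. Myof also passed in H2/H2 cord at 4.95 CPM (SD 0.38), with a log2 fold change of 0.47 (SE 0.11) and an adjusted p of 0.0413, in mice whose cord Ide did not differ from the controls by more than the spread. Its log2 fold change was also above 0 against the same 3 control cords in H1/H1 (0.42, SE 0.13, adjusted p 0.183) and H3/H3 (0.32, SE 0.13, adjusted p 0.288). Lgi1, which encodes a secreted neuronal protein, was lower there, at 157 against 173 CPM, with a log2 fold change of -0.14 (SE 0.033) and an adjusted p of 0.041, and these 2 calls stand beside 2.09% of all genes. Both are near the threshold, and each fit without 1 cord left at most 1 of them. In H1/H1 none of 15 in brain and none of 13 in cord passed, with 1 and 3 at an unadjusted p under 0.05 and 0 by DESeq2, beside 0% and 0.289% of all genes. With the replicate block, 3 genes in all and 0 of these 15 were called in H1/H1 brain. In H2/H2 brain none of 15 passed, with 2 at an unadjusted p under 0.05 and 0 by DESeq2, beside 0.136% of all genes, and in H5/H5 against DBA/1J, where 0% of all genes in brain and 0.00581% in cord were called, none passed in either tissue, with 1 and 0 at an unadjusted p under 0.05 and 0 in both by DESeq2. In DBA/1J against C57BL/6J cord 2 of 14 passed, beside 21.3% of all genes: Rbp4, the gene of the retinol carrier, was higher, with a log2 fold change of 1.21 (SE 0.25) and an adjusted p of 0.00354, and Lgi1 lower, with -0.17 (SE 0.052) and an adjusted p of 0.0334. In DBA/1J brain none of 13 passed, with 3 at an unadjusted p under 0.05 and 1 by DESeq2, beside 11.2% of all genes. Beyond Kif11, the homeobox gene Hhex read 1.33 CPM (SD 0.25) in H3/H3 against 1.26 (SD 0.10) in C57BL/6J brain, and Exoc6, a subunit gene of the exocyst, 27.2 (SD 2.1) against 27.7 (SD 2.6). Beyond Tnks2, Ppp1r3c, which encodes a glycogen-targeting subunit of protein phosphatase 1, had log2 fold changes of -0.19 (SE 0.082) in H3/H3 and -0.23 (SE 0.081) in H4/H4 brain, with adjusted p of 0.468 and 0.246, and of 0.07 in both cords. Those of Htr7, Rpp30, Pcgf5, Hectd2 and Fra10ac1 lay between -0.18 and 0.07 in the 4 comparisons of H3/H3 and H4/H4.

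The ratio of cord to brain within each animal showed how far the level of a gene was shared by tissues. For Ide this ratio ran from 1.077 to 1.304 with a median of 1.15 over 24 animals, and the 4 H3/H3 animals stood at 1.16, 1.13, 1.15 and 1.16. For Btaf1 it ran from 0.63 to 0.94 with a median of 0.755. The H3/H3 animals, at 0.86, 0.81, 0.94 and 0.83, were all above the C57BL/6J animals, at 0.73, 0.71 and 0.63. The H1/H1 animals, at 0.75, 0.76 and 0.75, were also all above the C57BL/6J animals, and H2/H2 animal 4, at 0.83, lay within the H3/H3 range. The share of all genes whose ratio separated in this way was not computed. The fold of Btaf1 over the controls was larger in cord (1.64) than in brain (1.31), while the fold of Fgfbp3 was larger in brain (1.88) than in cord (1.503). These differences between tissues were not tested.

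**Figure D3:**
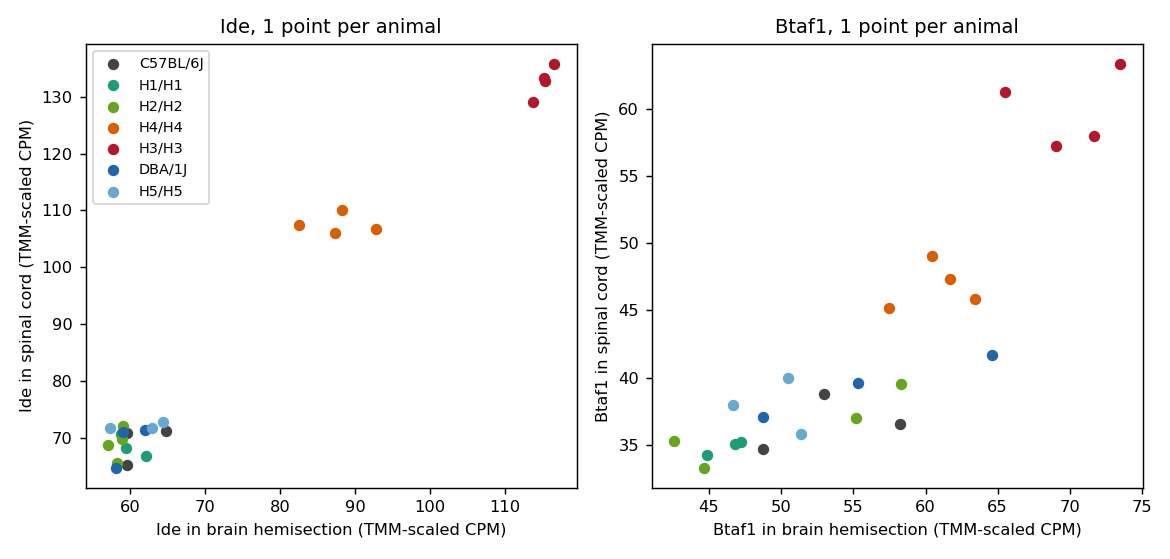
Level in spinal cord (vertical axis) against level in brain hemisection (horizontal axis) of the same animal in TMM-scaled CPM, for Ide and Btaf1; each point is 1 of 24 animals, coloured by genotype, and the axes do not start at 0. The Ide points form 3 clusters, with the 4 H4/H4 animals between the 4 H3/H3 animals and all others.

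DBA/1J mice and their H5/H5 mutants carried Ide at the level of the lowest C57BL/6J-related group. DBA/1J brains read 58.0, 62.0 and 59.0 CPM and H5/H5 brains 57.3, 62.8 and 64.4 CPM, and both groups overlapped with C57BL/6J. DBA/1J cords read 64.7, 71.3 and 71.1 CPM and H5/H5 cords 71.6, 71.6 and 72.7 CPM. Every H5/H5 cord was above every DBA/1J cord, with a mean fold of 1.04 (SD 0.057), as for 6.81% of all genes, but in deposited TPM the groups overlapped (fold 1.027, SD 0.13). The mean Ide level of DBA/1J was 0.97-fold (SD 0.058) that of C57BL/6J in brain and 1.00-fold (SD 0.072) in cord, in comparisons where 11.2% and 21.3% of all genes were called. Other genes of the stretch differed between the strains. Kif11 averaged 1.41 CPM (SD 0.26) in DBA/1J and 2.45 (SD 0.060) in C57BL/6J brain, without overlap. In cord it averaged 1.65 CPM (SD 0.27) and 2.08 (SD 0.055), without overlap in CPM or TPM. Fgfbp3 in cord averaged 1.78 CPM (SD 0.20) and 2.61 (SD 0.33), also without overlap, while in brain it overlapped (0.96-fold, SD 0.20). The scarce Rpl10-ps6 was lower in all DBA/1J cords (0.43-fold, SD 0.30). In brain its mean was 1.82-fold (SD 0.93), with overlap in CPM but not in TPM. Cpeb3 in brain averaged 99.2 CPM (SD 2.8) and 86.4 (SD 1.8) without overlap, but overlapped in deposited TPM (fold 1.086, SD 0.13), and in cord it overlapped on both scales (0.986 in CPM). Over all genes 13.7% were above and 16.4% below in every DBA/1J brain, and 20% below in every DBA/1J cord. Brain hemisection 1 of DBA/1J held 0.209 CPM of cerebellum markers in sum, where the other 2 held 126 and 121 CPM, and its Ide level of 58.0 CPM was the lowest of the 3.

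Among the dissected regions, cerebellum stood apart for Ide. DBA/1J cerebellum read 91.9, 91.2 and 90.3 CPM and H5/H5 cerebellum 95.3, 93.1 and 92.7 CPM, while cortex read 57.6 to 62.8 CPM and hippocampus 57.6 to 59.9 CPM over both genotypes. The 6 cerebellum values did not overlap with those of any other region or of the spinal cord (64.7 to 72.7 CPM) of this background. The share of all genes that separated cerebellum in this way was not computed. Cortex, hippocampus and cerebellum were taken from the same 3 DBA/1J and 3 H5/H5 mice of 7 weeks. The cords came from other mice of 8.4 to 8.9 weeks. The H5/H5 cerebella averaged 93.7 against 91.1 CPM in DBA/1J, but 44.3 against 44.5 in deposited TPM, where the groups overlapped. Btaf1 was lowest in cord, at 39.4 CPM (SD 2.3) in DBA/1J, and averaged 69.3 (SD 4.2) in cerebellum, 66.5 (SD 7.5) in cortex and 54.9 (SD 3.0) in hippocampus, where cortex overlapped with both cerebellum and hippocampus. Fgfbp3 averaged 4.11 CPM (SD 0.78) in cerebellum, 3.85 (SD 0.76) in cortex, 3.31 (SD 0.045) in hippocampus and 1.78 (SD 0.20) in cord. In bulk tissue a different number of cells of a type and a different amount of RNA per cell cannot be told apart. The libraries of H5/H5 mouse 3 of cortex, hippocampus and cerebellum are labelled female but held 58.6 to 85.6 CPM of the Y-linked gene Ddx3y, and its Ide values of 59.8, 59.9 and 92.7 CPM lay with those of its group.

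**Figure D4:**
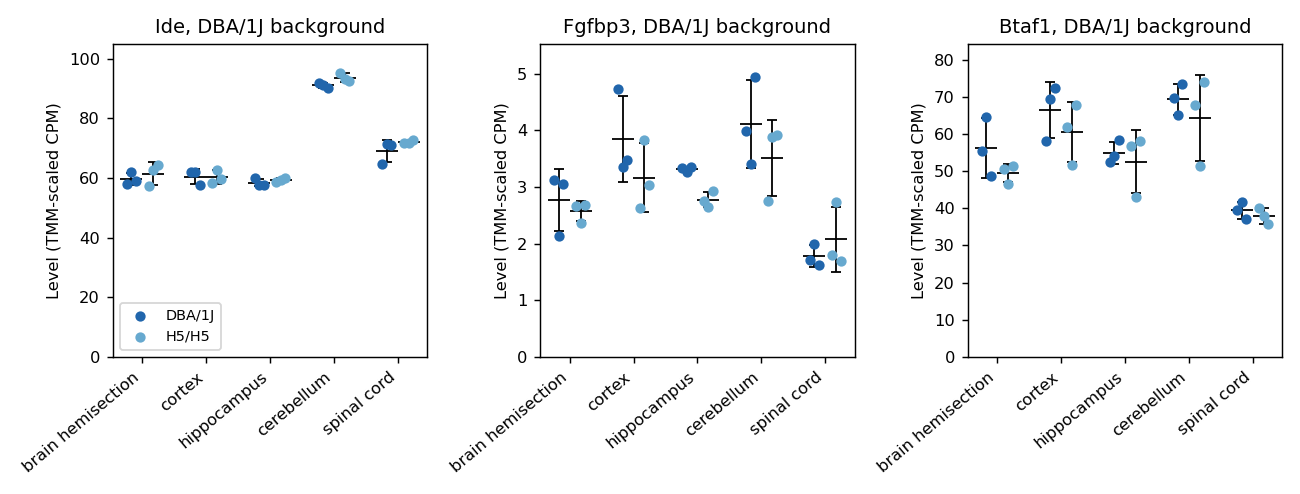
Ide, Fgfbp3 and Btaf1 in TMM-scaled CPM (vertical axes) in 5 tissues (horizontal axes) of DBA/1J and H5/H5 mice; points are libraries, horizontal bars means and error bars SD (n = 3). Ide was highest in cerebellum, at 90.3 to 95.3 CPM, and the means of Btaf1 and Fgfbp3 were lowest in spinal cord.

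Levels of different genes were compared in the deposited TPM, which account for transcript length. Over 66 libraries the median was 65.3 TPM for Tnks2, 59.4 for Marchf5, 47.9 for Cpeb3, 28.6 for Ide, 14.4 for Btaf1, 3.665 for Fgfbp3, 1.445 for Rpl10-ps6 and 0.78 for Kif11. These medians pool all groups, and in H3/H3 the order of Ide and Cpeb3 was the other way round, with means of 48.9 and 40.9 TPM in brain and 55.5 and 50.3 TPM in cord. The last 2 genes also changed places in some groups, with 0.80 TPM for Kif11 and 0.51 for Rpl10-ps6 in DBA/1J hippocampus. In TPM the folds of Ide over C57BL/6J were 1.88 in H3/H3 and 1.45 in H4/H4 brain, and 1.94 and 1.55 in cord.

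The genes whose pattern was most like that of Ide were found as those with the highest Pearson r of log2 CPM over the 18 C57BL/6J-related animals, taking the smaller of the values in brain and cord, among 16521 genes. Btaf1 came first, with 0.86 in brain and 0.98 in cord, and Fgfbp3 second, with 0.88 and 0.83. The brain and cord points come from the same animals and share strains within groups, and since Ide lies in 3 separate levels, r here restates the steps between groups. With each group's mean removed, r with Ide was 0.0034 in brain and 0.74 in cord for Btaf1, and 0.19 and -0.18 for Fgfbp3, and it was 0.39 and -0.10 for Cpeb3, 0.36 and -0.23 for Kif11, -0.12 and 0.34 for Marchf5 and 0.093 and -0.015 for Tnks2. Across the groups the smaller r was 0.035 for Marchf5 (rank 3962), -0.0077 for Cpeb3 (rank 4931), -0.081 for Tnks2 (rank 6715) and -0.67 for Kif11 (rank 16383), where the median over all genes was -0.14. The third gene was Amd-ps3, a pseudogene on another chromosome, with 0.82 and 0.86, which averaged 0.66 CPM (SD 0.18) in C57BL/6J, 2.20 (SD 1.9) in H4/H4 and 6.12 (SD 2.0) in H3/H3 brain. It was followed by C4b, which encodes a complement component, at 0.66, by 2610005L07Rik, Gm21092, the interferon-induced kinase gene Eif2ak2 and ENSMUSG00000097566 at 0.60 to 0.63, and by the microglial receptor gene Trem2 and the serpin gene Serpina3n at 0.59. C4b was higher in H3/H3 than in C57BL/6J brain (35.8, SD 2.9, against 23.2 CPM, SD 0.81) and averaged 24.5 CPM (SD 2.4) in H4/H4, where its values of 21.5 to 26.9 CPM overlapped with those of the controls.

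Genes that act with these were taken from 5 lists of 74 genes in all. In H3/H3 brain none of the 70 tested passed, with 6 at an unadjusted p under 0.05 and 0 by DESeq2, beside 0.164% of all genes. In H4/H4 brain none of 69 passed, with 4 at an unadjusted p under 0.05 and 1 by DESeq2, beside 0.703% of all genes. The median log2 fold change over the lists was -0.02 in H3/H3 and -0.04 in H4/H4, where that of all genes was 0.00 in both. The 18 other peptidases that cleave insulin or amyloid beta or belong to the family of Ide, such as Mme (neprilysin), Nrdc and Pitrm1, had medians of 0.02 and -0.03, and the genes of insulin, IGF and amyloid precursor processing -0.05 and -0.03, with 14 of 17 tested. The 13 TATA-binding protein and preinitiation factors had medians of -0.01 and -0.06. In cord 1 of 70 passed in H3/H3, beside 1.01% of all genes: Taf13, a subunit of TFIID, at 38.2 CPM (SD 2.1) against 46.0 in C57BL/6J, with a log2 fold change of -0.27 (SE 0.054) and an adjusted p of 0.034. It was lost with sex as a covariate, without any of the 3 C57BL/6J cords and without H3/H3 cord 2 or 3. In H4/H4 cord none of 70 passed, with 12 at an unadjusted p under 0.05 and 2 by DESeq2, beside 1.75% of all genes. Between the control strains, 7 of 69 partner genes passed in brain and 13 of 70 in cord, where 11.2% and 21.3% of all genes were called. Fits without 1 brain called 3 to 6 partner genes, and 4 without the DBA/1J hemisection low in cerebellum markers. In the same comparisons 3 of 30 cell and tissue markers were lower in brain (Aqp4, Mog and Prox1), and 1 of 26 was higher (Csf1r) and 4 lower (Gfap, Mog, Hoxc8 and Prox1) in cord. Their part in these calls was not tested. In brain Mme and Rpl10 were higher in DBA/1J, and Ece1, Ncstn, Psenen, Tnks and Mfn2 lower. In cord Mmp2, Mmp14, Psen2, Fgf1, Fgfr1, Ctsd and Igf2 were higher, and Ncstn, Psenen, Fgf2, Fgfr3, Tnks and Mfn2 lower. The log2 fold changes in cord were 1.12 (SE 0.12) for Mmp2 and 0.49 (SE 0.069) for Mmp14, which encode matrix metalloproteinases, 0.40 (SE 0.091) for Psen2, a presenilin gene, and -0.32 (SE 0.062) for Ncstn and -0.53 (SE 0.075) for Psenen, whose products are subunits of gamma-secretase. They were 0.24 (SE 0.045) for Fgf1, -0.58 (SE 0.075) for Fgf2, -0.21 (SE 0.039) for the receptor gene Fgfr3, -0.21 (SE 0.039) for Tnks, which encodes the other tankyrase, and -0.29 (SE 0.036) for Mfn2, a mitochondrial fusion gene. These 10 had the smallest adjusted p among the partner genes, the highest of them in cord being 0.00625 for Psen2 by edgeR. In H2/H2 cord 1 of 70 passed, beside 2.09% of all genes: Fgfr2, at 144.9 CPM (SD 4.3) against 131.5 (SD 3.5), with a log2 fold change of 0.14 (SE 0.032) and an adjusted p of 0.0273. No partner gene was called there with sex as a covariate, with the replicate block or in 4 of the 7 fits without 1 cord. In H2/H2 brain none of 70 passed (3 at an unadjusted p under 0.05), and in H1/H1 none of 70 in brain (2) and none of 69 in cord (9), with 0 by DESeq2 in each.

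The markers followed the tissue labels: forebrain markers summed to 98.4 to 156 CPM in the brain hemisections and 3.36 to 5.86 CPM in the cords, and spinal cord markers to 155 to 194 CPM in the cords and at most 8.36 CPM in brain. Rorb itself read 10.5 to 14.8 CPM in H4/H4 and 51.5 to 61.5 CPM in C57BL/6J brain, and 50.9 to 55.3 CPM in H3/H3 brain. Beside the Ide steps, 1 of 31 tested cell and tissue markers was called in H3/H3 brain (the blood gene Hba-a1, 45.9 against 63.2 CPM, adjusted p 0.0166 by edgeR), 0 of 30 in H4/H4 brain (12 at an unadjusted p under 0.05), 0 of 27 in H3/H3 cord (12 at an unadjusted p under 0.05) and 2 of 27 in H4/H4 cord (the astrocyte gene Slc1a3, higher, and the neuronal gene Syt1, lower), where 0.164%, 0.703%, 1.01% and 1.75% of all genes were called. In H2/H2 cord, where Myof, Lgi1 and Fgfr2 were called, 3 of 27 markers were lower (the neuronal gene Syt1, the astrocyte gene Aqp4 and Hba-a1, with log2 fold changes of -0.13, -0.17 and -0.38), beside 2.09% of all genes, and their part in those calls was not tested. Summed neuronal markers spanned 2817 to 3382 CPM in C57BL/6J, 3039 to 3331 in H4/H4 and 2976 to 3414 in H3/H3 brain, and oligodendrocyte markers 4882 to 5631, 4138 to 5146 and 3604 to 5200 CPM. Cerebellum markers spanned 112.7 to 161.1 CPM in C57BL/6J, 65.5 to 117.3 in H4/H4 and 88.3 to 115.3 in H3/H3 brain. Their part in the Ide levels was not tested. The H3/H3 mouse with the lowest oligodendrocyte sums, 3604 CPM in brain and 14470 in cord, read 115.3 and 133.4 CPM of Ide, within the range of the other H3/H3 mice.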

How the data were processed

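Poly-A RNA of 66 libraries was sequenced by the authors in pairs of 150 bases, trimmed with Trim Galore, aligned to GRCm38 with STAR and quantified per gene with RSEM. The annotation release is not given in the sources used here. The deposited expected counts (estimated, with 5.07% not whole) were rounded, and the deposited TPM values were used to compare genes. No deposited column was left without a sample. Symbols came from the GENCODE names (41407 of 45706 identifiers) and positions from the GRCm38.p6 RefSeq table (31197). The list of 8 genes, the partner lists and the markers were chosen with earlier results of these data known.

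edgeR 4.0.16 (R 4.3.3) was run with TMM scaling, its low-count filter and the quasi-likelihood test for 12 pairwise comparisons, each mutant or DBA/1J against its control within 1 tissue, with Benjamini-Hochberg adjustment and a threshold of 0.05. The fit was checked on simulated data. The SE of a log2 fold change is its absolute value divided by the square root of the quasi-likelihood F statistic. The SD of a fold is the fold times the root of the summed squares of both groups' SDs, each relative to its mean. Named were the 8 genes, genes of the window that passed or had a median CPM above 1, the partner genes that passed (values for the 10 of smallest adjusted p), the 10 genes most like Ide (log2 CPM, prior count 2) and Rorb and sex genes. Taf13 and Fgfr2, the 1 partner gene called in their comparisons, were given values after these were seen. Replicates are separate mice. Precision rests on 3 or 4 mice per group, and totals were 32889755 to 59120536 counts per library. Same-numbered H1/H1 and C57BL/6J brains deviated together (r of 0.114, 0.119 and 0.199), so by the limit of 0.1 used here the numbers count as pairs. These same-numbered mice were also of the same sex, and sex and pairing were not told apart. The printed fit has no block, and with it 3 genes instead of 0 were called. By their identifiers H1/H1 mice share a series with the C57BL/6J mice, and H5/H5 mice share series with DBA/1J mice. The H2/H2, H3/H3 and H4/H4 mice are of other series than their controls. Also tried were DESeq2 1.42.0, its size factors, fits with every gene kept, a term for sex, a replicate block, deposited TPM, plain CPM, Spearman's rho and fits without each mouse in turn.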

Additional observations from a re-analysis of the deposited data

Results flagged for a closer look

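Among 48 pairs of a gene and a group of 4 mice that were looked at for a library far from the rest, 1 stood out, where chance flags about 1 in 20 groups. This was Marchf5 in spinal cord 4 of H4/H4, which read 52.3 CPM while the other 3 H4/H4 cords lay close together just above 47.9 CPM. The value is inside the range of the H3/H3 cords, 47.8 to 53.6 CPM, and the Ide level of the same library, 107.5 CPM, was not set apart from its group.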

How the results depend on the processing

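The log2 fold changes of Ide in H3/H3 and H4/H4 kept their direction in every alternative, between 0.91 and 0.95 in H3/H3 and between 0.52 and 0.64 in H4/H4 with all mice included, and the folds in deposited TPM and plain CPM moved by less than 1 SD for Ide, Fgfbp3 and Btaf1. Without single mice the fold of Ide was 1.85 to 1.94 in H3/H3 and 1.40 to 1.47 in H4/H4 brain. Counts of called genes depended strongly on the tool, and the cause was not tested. In the order H1/H1, H2/H2, H3/H3, H4/H4 and H5/H5, edgeR called 0, 24, 29, 125 and 0 genes in brain and 50, 365, 176, 305 and 1 in cord, DESeq2 21, 92, 195, 437 and 66 in brain and 131, 553, 439, 605 and 95 in cord, and edgeR with no low-count filter 37, 80, 86, 359 and 22 in brain and 477, 783, 380, 686 and 25 in cord. With sex as a covariate the count was 1 in H1/H1 and 5 in H2/H2 brain, and 98 in H1/H1, 73 in H3/H3 and 0 in H5/H5 cord.

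With the replicate block the count was 3 in H1/H1, 3 in H2/H2, 2 in H3/H3 and 244 in H4/H4 brain, 1293 in DBA/1J against C57BL/6J brain (1952 without it), 89 in H1/H1 cord and 10 in H5/H5 cord. The block left 4 partner genes in DBA/1J brain, 1 neighbouring and 0 partner genes in H2/H2 cord and 0 neighbouring genes in H4/H4 cord. Outside H1/H1 brain at least 1 pair of same-numbered mice had a correlation of 0.1 or less, the limit used for pairing, although all 3 were positive in H4/H4 brain (0.093 to 0.154), H4/H4 cord (0.062 to 0.18) and H1/H1 cord (0.024 to 0.047).

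DESeq2 called 1 partner gene in H4/H4 brain, 2 in H2/H2, 2 in H4/H4 and 2 in H5/H5 cord, and 1 neighbouring gene in DBA/1J brain and 2 in H4/H4 cord. With no low-count filter these were 1 partner gene in H4/H4 brain, 2 in H1/H1, 3 in H2/H2 and 2 in H4/H4 cord, and 1 neighbouring gene in DBA/1J brain, 2 in H4/H4 cord and 4 in DBA/1J cord. With sex as a covariate 0 neighbouring and 0 partner genes were left in H2/H2 cord and 0 partner genes in H3/H3 cord.

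Without single mice the called genes ranged from 0 to 1 in H1/H1, 2 to 22 in H2/H2, 7 to 29 in H3/H3, 53 to 182 in H4/H4, 0 to 2 in H5/H5 and 1269 to 1709 in DBA/1J brain, and from 0 to 187, 132 to 501, 34 to 295, 90 to 355 and 0 to 2 in the cords of H1/H1 to H5/H5. Neighbouring genes ranged from 0 to 1 in DBA/1J brain, in H2/H2 cord and in H4/H4 cord and from 1 to 3 in DBA/1J cord, and partner genes from 3 to 6 in DBA/1J brain, 0 to 3 in H2/H2, 0 to 2 in H3/H3 and 0 to 1 in H4/H4 cord. Of the 10 genes most like Ide, 5 were shared with the list by Spearman's rho, 0 with that from deviations from group means, 6 without the C57BL/6J mice, 5 without the H1/H1, 5 without the H2/H2, 1 without the H3/H3 and 5 without the H4/H4 mice. Fgfbp3, Kif11 and Rpl10-ps6 are limited by their low counts.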
